A study of Mus musculus with 6 samples.

Results

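The expression of 10 planar cell polarity genes was examined in cells sorted from embryonic mouse livers: the ligand gene Wnt5a, the co-receptor gene Ror2, the Frizzled receptor genes Fzd3 and Fzd6, and the core genes Celsr1, Celsr2, Vangl1, Vangl2, Prickle1 and Prickle2. They were taken by name from the 52550 genes listed in the expression table, and all 10 were found. The livers came from CD-1 mice carrying Sox9-GFP, a reporter that makes cells expressing Sox9 fluoresce. The labels give embryonic days 16 and 18, which the methods of the study write as E16.5 and E18.5, and each stage had 3 libraries (A, B and C). Each library was made from a pool of 15 livers, which were dissociated with collagenase and dispase, depleted of haematopoietic lineage cells with magnetic beads and sorted for GFP, so that it averages over embryos and over all GFP-positive cells. Both stages carry the same reporter and no other treatment, and total RNA was sequenced with a stranded kit.

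Planar cell polarity is the alignment of cells within the plane of an epithelium, at right angles to the axis that runs from the apical to the basal pole. It is set up by a core group of membrane proteins that sort to opposite sides of each cell: the atypical cadherins of the Celsr family bridge neighbouring cells, Frizzled receptors with Dishevelled gather on one side, and Vangl proteins with Prickle gather on the other. Wnt5a is a secreted ligand that acts through Frizzled receptors and Ror2 without beta-catenin, and the pathway is best known for its role in tube elongation and in tissue movements that narrow and lengthen a sheet of cells. Cholangiocytes are the epithelial cells that line bile ducts, and they arise from hepatoblasts next to the portal vein.

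Of the 10 genes, 6 were higher at E18.5 than at E16.5 at an adjusted p under 0.05 in limma (a linear model on log2 of TPM + 1, p-values adjusted by Benjamini-Hochberg across 22452 genes that averaged 1 TPM or more), and 0 were lower. TPM, the unit of the table, is a read count divided by gene length and scaled to the same total in every library, so levels can be compared between genes. The 6 genes were Wnt5a, Celsr2, Celsr1, Fzd6, Vangl2 and Fzd3, whereas Prickle2, Vangl1, Ror2 and Prickle1 did not pass. Among all genes tested, 31.2% were called, 26.0% higher and 5.22% lower at E18.5, and the median log2 fold change was 0.42, compared with a median of 1.001 over the 10 genes. With a median-of-ratios scaling, which brings the median of all genes to 0.01, 16.9% of all genes were called (6.44% higher and 10.5% lower), and 2 of the 10 genes, Wnt5a and Fzd6, passed, both higher. The count of 6 was the same, with the same genes, without the E16.5 library C. It was 0 without the E18.5 library A or B, where 1148 and 2499 of all 22452 genes were called. In each of these fits 6 of the 10 had an unadjusted limma p under 0.05, beside 8498 and 8469 of all 22452 genes. Each p measures the spread between these pools only.

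**Figure D1:**
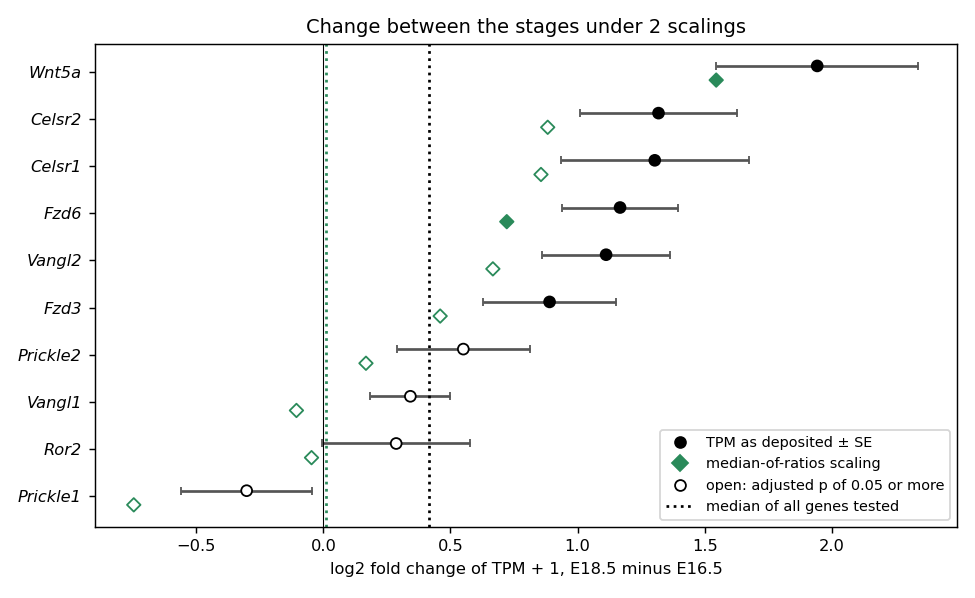
Log2 fold change of TPM + 1 (E18.5 minus E16.5, horizontal axis) of the 10 genes, with the limma standard error as bars; circles show TPM as deposited and diamonds the median-of-ratios scaling, filled where the adjusted p was under 0.05. With TPM as deposited, 9 of the 10 genes lie to the right of 0 and Prickle1 to the left; under median-of-ratios scaling the points of Vangl1 and Ror2 cross to the left of 0, at -0.11 and -0.046, and the filled diamonds are Wnt5a and Fzd6.

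The means of the 10 genes spanned 2.59 to 22.9 TPM in the younger livers and 3.29 to 49.0 TPM in the older ones. The order of the means at E16.5 was Prickle1, Vangl1, Celsr1, Fzd6, Vangl2, Celsr2, Fzd3, Wnt5a, Prickle2 and Ror2, and every pair of neighbours in this order overlapped between libraries. At E18.5 the order was Celsr1, Fzd6, Vangl2, Celsr2, Vangl1, Wnt5a, Fzd3, Prickle1, Prickle2 and Ror2. The neighbours Celsr1 and Fzd6 did not overlap, nor did Prickle1 and Prickle2 or Prickle2 and Ror2, while the other neighbours did. Celsr1 was thus the most abundant of the 10 in every E18.5 library, and Prickle1 moved from ranks 1 to 5 in the E16.5 libraries to ranks 7 to 8 in the E18.5 libraries. Seen against protein-coding genes, Celsr1 stood above 72.3% of them at E16.5 and 84.5% at E18.5, and Ror2 above 44.8% and 43.8%.

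**Figure D2:**
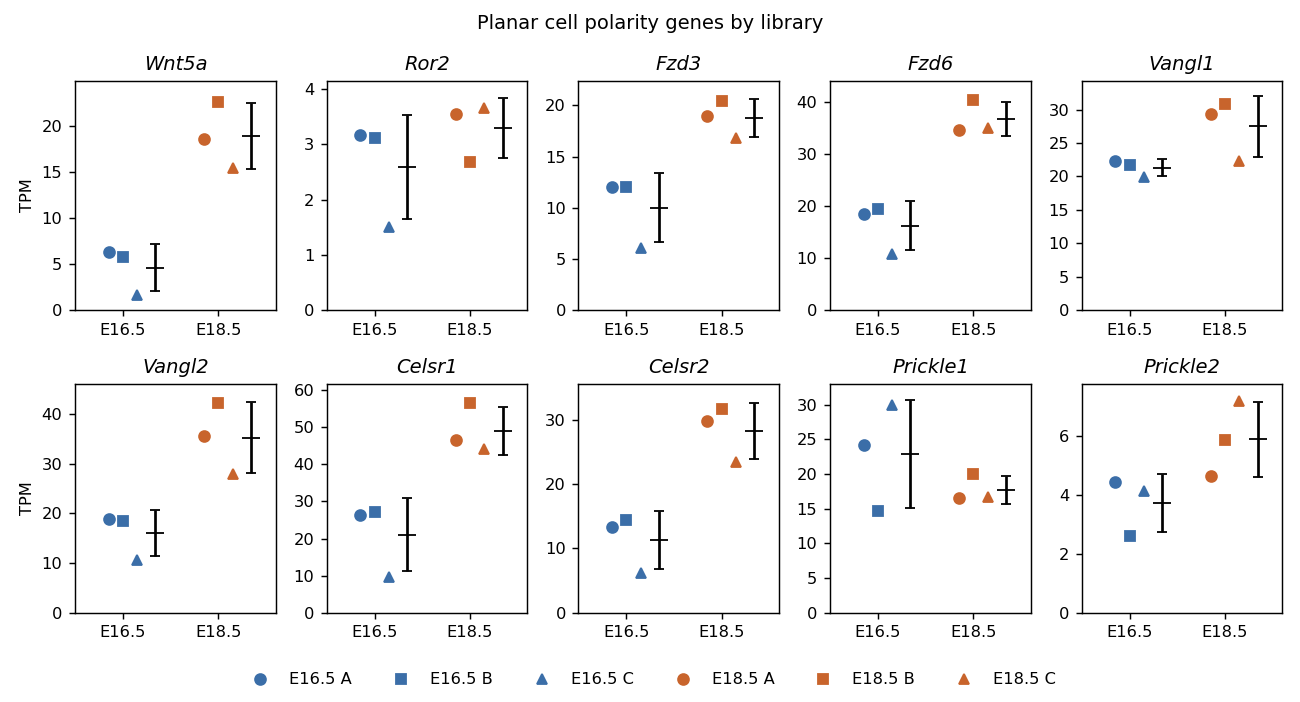
TPM (vertical axis, from 0, with its own scale in each panel) of the 10 genes in the 3 E16.5 libraries (blue) and the 3 E18.5 libraries (orange), with the mean and SD beside each group. In 7 panels every E18.5 point lies above every E16.5 point, and the stages overlap for Ror2, Vangl1 and Prickle1; the triangle of E16.5 library C is the lowest E16.5 point in 8 panels, the exceptions being Prickle1 and Prickle2.

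The sequences around the starts of 3 of these genes are given to show what kind of promoter they have: Vangl2 and Celsr2, which rose, and their partner Prickle1, which did not pass the test. The RefSeq table of promoters (GRCm38.p6, 250 bases before to 50 after the annotated start) held 5 of the 10 genes, the other 2 being Prickle2 and Ror2. Each sequence is written 5′ to 3′ on the strand of the gene, which is the minus strand for all 3, with capitals for ACAAT, a core of the motif bound by SOX proteins, searched on both strands.
Vangl2, chr1:172027246-172027545: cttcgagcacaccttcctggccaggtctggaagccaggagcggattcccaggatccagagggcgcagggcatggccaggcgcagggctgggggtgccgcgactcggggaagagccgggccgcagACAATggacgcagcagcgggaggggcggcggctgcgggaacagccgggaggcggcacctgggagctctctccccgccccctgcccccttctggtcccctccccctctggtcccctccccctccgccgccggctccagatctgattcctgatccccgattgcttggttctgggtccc
Celsr2, chr3:108415530-108415829: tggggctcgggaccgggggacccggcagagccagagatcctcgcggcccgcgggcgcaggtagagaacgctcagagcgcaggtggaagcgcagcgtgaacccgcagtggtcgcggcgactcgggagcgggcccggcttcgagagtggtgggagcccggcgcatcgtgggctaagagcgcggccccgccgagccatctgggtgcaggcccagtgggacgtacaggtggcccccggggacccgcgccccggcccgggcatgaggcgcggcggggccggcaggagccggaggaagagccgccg
Prickle1, chr15:93595853-93596152: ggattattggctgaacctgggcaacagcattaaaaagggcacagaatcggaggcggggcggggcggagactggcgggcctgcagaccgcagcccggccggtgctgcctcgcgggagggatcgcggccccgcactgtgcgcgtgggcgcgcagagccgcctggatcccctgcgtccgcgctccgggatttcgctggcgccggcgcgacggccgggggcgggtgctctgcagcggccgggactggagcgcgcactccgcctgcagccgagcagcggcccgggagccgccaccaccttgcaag
All 3 windows were rich in G and C, with 71.3% for Vangl2, 76.3% for Celsr2 and 74.0% for Prickle1, compared with a median of 52.7% over the 32851 promoters of the table. They held 21, 40 and 39 CpG dinucleotides, where the median promoter held 7. Only Vangl2, among the 5 genes with a promoter in the table, held ACAAT, once, and 31.0% of all promoters did. The GC box GGGCGG, read by SP1, was searched on both strands and cannot overlap ACAAT: it occurred 2 times in Vangl2, 3 times in Prickle1, 3 times in Prickle2, 5 times in Ror2 and not in Celsr2, and 35.7% of all promoters held it. A match describes the letters of these windows only. For Prickle1 2 starts were listed and for Prickle2 4, and the most upstream was used. The Vangl2 window lies inside the gene as annotated for its TPM (chr1:172000960-172028444), not at the outermost start of that annotation.

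Wnt5a, the ligand of the group, showed the largest change of the 10 genes. In the E16.5 libraries A, B and C it was at 6.34, 5.80 and 1.68 TPM, and in the E18.5 libraries at 18.6, 22.6 and 15.5 TPM. Every E18.5 library was above every E16.5 library, and library C was the lowest within each stage. The mean went from 4.61 ± 2.55 to 18.9 ± 3.59 TPM (SD, n = 3 each), with a log2 fold change of 1.94 ± 0.40 (SE, limma adjusted p = 0.0166). It stayed past the threshold with median-of-ratios scaling, at 1.55 (adjusted p = 0.0356). The low value in the E16.5 library C rested on 105 reads (1.38 to 2.04 TPM, 95% exact Clopper-Pearson interval), against 425 and 354 reads in A and B, so that counting error does not span the difference within that stage. As the libraries are bulk RNA, more cells of a type that makes Wnt5a and more Wnt5a RNA per cell cannot be told apart, and the same holds for every gene below.

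The gene lies on the plus strand at chr14:28504750-28527448 (GRCm38), and 4.58% of its exon length is shared with Gm2670, annotated on the opposite strand. Gm2670 itself was at 0.582, 0.549 and 0.268 TPM at E16.5 and at 1.51, 3.28 and 1.41 TPM at E18.5, far below Wnt5a in every library. How strand was handled in counting is not given in the sources used here.

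Within the 19 Wnt genes, Wnt5a kept a similar place while their sum grew. The summed level of the family was 38.8, 38.5 and 18.1 TPM at E16.5 and 113, 127 and 117 TPM at E18.5. The share held by Wnt5a was 16.3%, 15.1% and 9.29% at E16.5 and 16.48%, 17.9% and 13.2% at E18.5, and the stages overlapped. Wnt4, a ligand known from kidney tubule formation, held the largest mean share at both stages, 34.6% and 40.7%.

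Ror2, the receptor tyrosine kinase-like co-receptor of Wnt5a, was the least abundant gene of the group and was not called. It was at 3.16, 3.11 and 1.51 TPM in the E16.5 libraries and at 3.55, 2.68 and 3.66 TPM in the E18.5 libraries. The E16.5 library C was the lowest of the 6, but the E18.5 library B fell below the E16.5 libraries A and B, and the stages overlapped. Its log2 fold change was 0.29 ± 0.29 (SE, limma adjusted p = 0.460) and turned to -0.046 with median-of-ratios scaling and -0.14 with quantile normalization. The value of the E16.5 library C came from 51 reads, the fewest behind any value of the group (1.12 to 1.98 TPM, 95% exact Clopper-Pearson interval).

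Its paralog Ror1, in contrast, was called. Ror1 was at 12.3, 16.7 and 5.53 TPM at E16.5 and at 38.0, 40.6 and 33.6 TPM at E18.5, a log2 fold change of 1.73 ± 0.35 (SE, limma adjusted p = 0.0159). Every E18.5 library was higher. Ror2 accordingly made up 20.4%, 15.7% and 21.4% of the summed Ror TPM in the E16.5 libraries and 8.55%, 6.18% and 9.81% in the E18.5 libraries, and these shares, which do not depend on the scaling between libraries, did not overlap. The difference between the changes of both genes was not tested.

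Fzd3 and Fzd6 encode the Frizzled receptors best known for planar polarity, in neural tube closure and hair orientation, and both rose. Fzd6 (chr15:39006034-39038188, plus strand) was at 18.4, 19.5 and 10.8 TPM in the E16.5 libraries and at 34.6, 40.4 and 34.9 TPM in the E18.5 libraries. The stages were well apart, and the E16.5 library C was the lowest. The mean went from 16.2 ± 4.75 to 36.6 ± 3.27 TPM (SD, n = 3 each), a log2 fold change of 1.17 ± 0.23 (SE, limma adjusted p = 0.0151), and the call held with median-of-ratios scaling (0.72, adjusted p = 0.0340). A stretch of 3.16% of its exon length is shared with Gm26704 on the opposite strand, a gene below 1 TPM in every library.

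Fzd3 (chr14:65192449-65262463, minus strand) was at 11.99, 11.99 and 6.09 TPM at E16.5 and at 18.9, 20.5 and 16.8 TPM at E18.5. Again the stages did not overlap and the E16.5 library C stood below A and B. Its log2 fold change of 0.89 ± 0.26 (SE, limma adjusted p = 0.0409) was the smallest of those called and became 0.46 (adjusted p = 0.167) with median-of-ratios scaling. When single libraries were left out, the call held in 1 case, without the E16.5 library C.

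Fzd3 and Fzd6 each held a larger share of the Frizzled family in every E18.5 library than in any E16.5 library. Fzd6 held 8.85%, 9.63% and 8.13% of the summed TPM of the 10 Frizzled genes in the E16.5 libraries and 13.2%, 14.7% and 13.5% in the E18.5 libraries. The share of Fzd3 was 5.76%, 5.93% and 4.601% at E16.5 and 7.21%, 7.45% and 6.48% at E18.5. These shares are descriptive and were not tested. Fzd7 was the most abundant Frizzled at both stages, with mean shares of 25.8% and 24.2%. Between both polarity receptors, the log2 ratio of Fzd3 to Fzd6 within a library went from -0.66 ± 0.08 to -0.93 ± 0.09 (SD, n = 3 each), lower in every E18.5 library than in any E16.5 library (exact permutation p = 0.1, two-sided, the smallest that 3 against 3 libraries can give; adjusted over 4 paralog pairs 0.133).

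Celsr1 and Celsr2 encode the large cadherins that link the polarity complexes of neighbouring cells, and both rose to a similar extent. Celsr1 (chr15:85898929-86033777, minus strand) was at 26.3, 27.1 and 9.66 TPM in the E16.5 libraries and at 46.5, 56.5 and 44.1 TPM in the E18.5 libraries. The E16.5 library C was 2.81-fold below the highest library of its stage, and the stages did not overlap. The mean went from 21.0 ± 9.85 to 49.0 ± 6.57 TPM (SD, n = 3 each), a log2 fold change of 1.30 ± 0.37 (SE, limma adjusted p = 0.0371), and it became 0.86 (adjusted p = 0.112) with median-of-ratios scaling.

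Celsr2 (chr3:108390851-108415552, minus strand; its promoter is printed above) was at 13.3, 14.4 and 6.15 TPM at E16.5 and at 29.8, 31.6 and 23.4 TPM at E18.5. The order of the libraries was the same as for Celsr1 within E16.5, with C far below A and B. Its log2 fold change was 1.32 ± 0.31 (SE, limma adjusted p = 0.0225), and 0.88 (adjusted p = 0.0596) with median-of-ratios scaling.

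The balance between both cadherins did not shift beyond the spread. The log2 ratio of Celsr1 to Celsr2 was 0.93, 0.87 and 0.58 in the E16.5 libraries and 0.62, 0.82 and 0.89 in the E18.5 libraries, so the stages overlapped and Celsr1 was the more abundant in all 6 libraries. The change was -0.01 (exact permutation p = 0.9, two-sided), and leaving out single libraries gave -0.12 to 0.061. Celsr3, the third member of the family, stayed below 1 TPM in every library and was not tested.

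Vangl1 and Vangl2 encode the transmembrane proteins that recruit Prickle, and they differed. Vangl2 (chr1:172000960-172028444, minus strand), whose promoter is printed above, was at 18.9, 18.6 and 10.7 TPM in the E16.5 libraries and at 35.6, 42.2 and 28.04 TPM in the E18.5 libraries. All E18.5 libraries were above all E16.5 libraries. The mean went from 16.0 ± 4.64 to 35.3 ± 7.08 TPM (SD, n = 3 each), a log2 fold change of 1.11 ± 0.25 (SE, limma adjusted p = 0.0212), and 0.67 (adjusted p = 0.0546) with median-of-ratios scaling.

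Vangl1 (chr3:102153583-102204693, minus strand) was at 22.3, 21.7 and 19.8 TPM at E16.5, the tightest values of the group at that stage, and at 29.3, 30.8 and 22.3 TPM at E18.5. The E18.5 library C lay level with the E16.5 libraries, and the stages overlapped. Its log2 fold change was 0.34 ± 0.16 (SE, limma adjusted p = 0.130), and it turned to -0.11 with median-of-ratios scaling and -0.023 with quantile normalization.

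The order of both Vangl genes was not the same in the libraries of both stages. The TPM ratio of Vangl1 to Vangl2 was 1.18, 1.17 and 1.86 in the E16.5 libraries and 0.822, 0.731 and 0.795 in the E18.5 libraries: Vangl1 was ahead in all 3 E16.5 libraries and Vangl2 in all 3 E18.5 libraries. On the log2 scale of TPM + 1 the ratio went from 0.43 ± 0.35 to -0.34 ± 0.09 (SD, n = 3 each), a change of -0.77 that ranged from -0.88 to -0.57 when single libraries were left out. The exact permutation p was 0.1 (two-sided, the smallest possible; 0.133 adjusted over the 4 pairs).

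Prickle1 and Prickle2 encode LIM domain proteins of the cytoplasm that bind Vangl, and neither was called. Prickle1 (chr15:93499114-93595891, minus strand), whose promoter is printed above, was at 24.1, 14.6 and 30.0 TPM in the E16.5 libraries and at 16.49, 19.99 and 16.7 TPM in the E18.5 libraries. Here the E16.5 library C was the highest of all 6 and B the lowest, so the stages overlapped. With a log2 fold change of -0.30 ± 0.26 (SE, limma adjusted p = 0.380) it was the only one of the 10 genes with a negative value, and it was at -0.75 (adjusted p = 0.128) with median-of-ratios scaling.

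Prickle2 (chr6:92370908-92706155, minus strand) was at 4.45, 2.58 and 4.13 TPM at E16.5 and at 4.62, 5.85 and 7.16 TPM at E18.5. Each E18.5 library was above each E16.5 library, although the E18.5 library A lay close to the E16.5 library A. The log2 fold change was 0.55 ± 0.26 (SE, limma adjusted p = 0.138), and 0.17 (adjusted p = 0.699) with median-of-ratios scaling.

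Prickle1 was the more abundant of both in all 6 libraries. The log2 ratio of Prickle1 to Prickle2 was 2.21, 2.12 and 2.59 in the E16.5 libraries and 1.64, 1.62 and 1.11 in the E18.5 libraries, without overlap, a change of -0.85 (exact permutation p = 0.1, two-sided, the smallest possible; 0.133 adjusted over the 4 pairs). Left-out libraries moved it between -0.94 and -0.68. Prickle1 held 70.3% ± 7.10 of the summed Prickle TPM at E16.5 and 55.3% ± 2.31 at E18.5 (SD, n = 3 each).

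**Figure D3:**
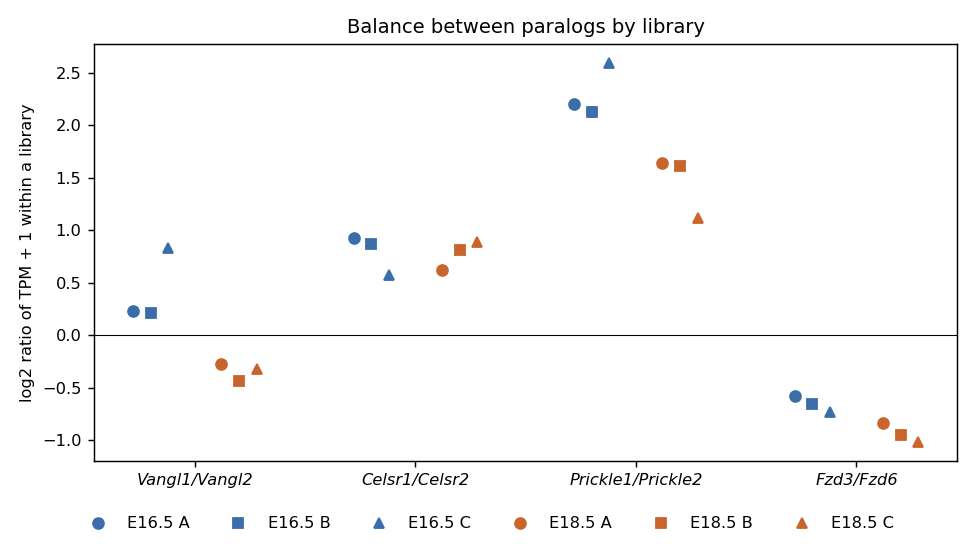
Log2 ratio of TPM + 1 between paralogs within each library (vertical axis) for 4 pairs, with E16.5 libraries in blue and E18.5 libraries in orange. The ratio of Vangl1 to Vangl2 crosses 0 between the stages, those of Prickle1 to Prickle2 and of Fzd3 to Fzd6 are lower in every E18.5 library, and those of Celsr1 to Celsr2 overlap.

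In all, 7 of the 10 genes did not overlap between the stages in TPM, and each of these was higher at E18.5; among all genes tested, 53.3% did not overlap and 45.0% had every E18.5 library above every E16.5 library. Library C was the lowest E16.5 library for 8 of the 10. The median-of-ratios factor, which follows the typical level of all genes, was also lowest in C, 0.765 against 0.935 in A and 0.893 in B. Divided by it, Vangl1 was highest in C, at 25.9 against 23.9 and 24.3, and the others stayed lowest there. The share of all genes that were lowest in C was not computed. The within-stage spread of the genes was not alike: the highest and lowest E16.5 libraries differed 1.12-fold for Vangl1 and 3.77-fold for Wnt5a.

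Of 10 markers of cholangiocytes, the labelled cell type, 9 were above 1 TPM in each of the 6 libraries. The exception was Muc1 at 0.908 TPM in the E16.5 library C. So were 12 of 12 hepatoblast, 11 of 12 mesenchyme, 7 of 8 endothelium, 8 of 8 megakaryocyte and 8 of 8 erythroid markers. Fewer passed for leukocytes (4 of 8), acinar cells (2 of 6), mesothelium (1 of 6) and neural and Schwann cells (1 of 6). This bar therefore does not settle the cell type. The summed level of the 10 cholangiocyte markers was 1913, 2429 and 715 TPM at E16.5 and 11608, 13816 and 7985 TPM at E18.5. Spp1 made up most of this sum, at 1278, 1767 and 469 TPM at E16.5 and 10012, 12121 and 6629 TPM at E18.5. Of the 10, 9 were called higher, beside 26.0% of all genes, and 6 with median-of-ratios scaling, beside 6.44%. Sox9, the gene that drives the reporter, was at 157, 186 and 69.5 TPM at E16.5 and at 415, 466 and 353 TPM at E18.5 (log2 fold change 1.68 ± 0.35, SE, limma adjusted p = 0.0174). Library C was thus lowest at E16.5 for Sox9 as well as for 8 of the 10 polarity genes, and the typical level of all genes was lowest there too. Hepatoblast markers, in turn, summed to 180295, 189119 and 230045 TPM at E16.5 and to 86048, 41847 and 103353 TPM at E18.5. Of these 12 markers, 8 were called lower, beside 5.22% of all genes, and 7 with median-of-ratios scaling, beside 10.5%. The part of these shifts in the values of the polarity genes was not tested beyond the ratios that follow.

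Because Sox9 itself changed, each gene was also expressed per 100 TPM of Sox9 in the same library, a comparison chosen after the values had been seen. Wnt5a was the only one of the 10 to stay higher: it was at 4.03, 3.12 and 2.42 TPM per 100 TPM of Sox9 in the E16.5 libraries and at 4.47, 4.86 and 4.38 in the E18.5 libraries, without overlap, a log2 change of 0.55 (exact permutation p = 0.1, two-sided, the smallest possible). Against the geometric mean of the 10 cholangiocyte markers it was 0.25 higher, and the stages overlapped (exact permutation p = 0.2).

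The other 9 genes were lower relative to Sox9 on average, from -0.28 for Celsr2 to -2.00 for Prickle1 on the log2 scale. Of these 9, 8 did not overlap, the exception being Prickle2. Sox9 itself had a log2 fold change of 1.68, beside a median of 0.42 over all genes tested. A gene at that median is therefore also lower relative to Sox9, and the share of all genes that are lower was not computed. Celsr2 was at 8.47, 7.74 and 8.85 TPM per 100 TPM of Sox9 at E16.5 and at 7.18, 6.79 and 6.62 at E18.5. Celsr1 was at 16.7, 14.6 and 13.9 at E16.5 and at 11.2, 12.1 and 12.5 at E18.5. In these units both cadherins varied less among the E16.5 libraries than in TPM, 1.14-fold and 1.20-fold against 2.34-fold and 2.81-fold, and library C no longer stood apart. For Prickle1 the reverse was seen: it was at 15.3, 7.85 and 43.1 at E16.5, a 5.49-fold spread, and at 3.97, 4.29 and 4.72 at E18.5. Vangl1 spread 2.45-fold at E16.5 in these units, with library C the highest. Library C was the lowest E16.5 library in these units for Celsr1 and Wnt5a and the highest for the other genes. Prickle2 spread 4.27-fold, against 1.72-fold in TPM. Per 100 TPM of the geometric mean of the 10 cholangiocyte markers, Celsr2 was at 23.4, 24.8 and 33.0 at E16.5, with library C apart. What set library C apart was not tested.

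**Figure D4:**
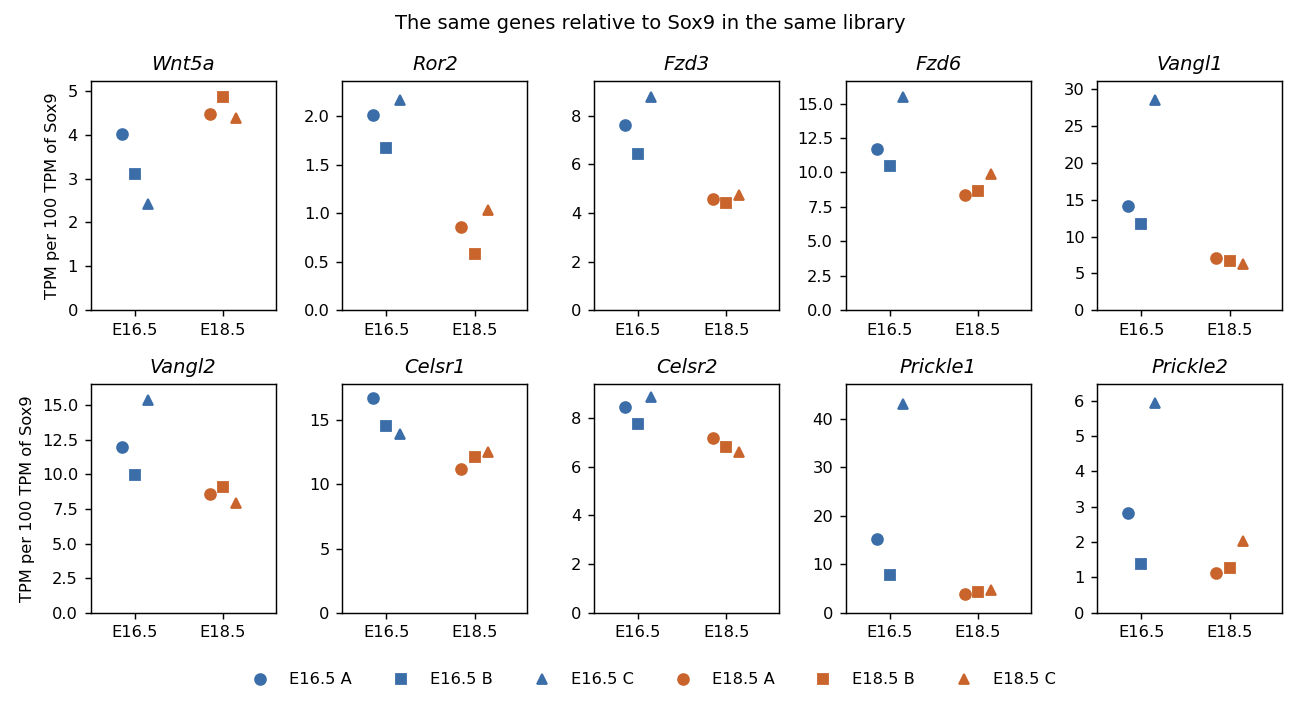
The 10 genes as TPM per 100 TPM of Sox9 in the same library (vertical axis, from 0, with its own scale in each panel), with E16.5 libraries in blue and E18.5 libraries in orange. Wnt5a is the only panel with all E18.5 points above all E16.5 points; in 8 panels the E18.5 points lie below, Prickle2 overlaps, and for Prickle1, Prickle2 and Vangl1 the triangle of E16.5 library C stands far above the rest.

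Beyond the 10 genes, 59 genes of the same pathway were examined in 7 lists, of which 44 passed the filter on low values. Of these 44, 21 were called higher and 2 lower, 52.3% together, beside 31.2% of all genes, and their median log2 fold change was 0.58, beside 0.42. With median-of-ratios scaling 9 of the 44 were called, beside 16.9% of all genes. Without the E18.5 library A or B the counts were 5 and 7, beside 1148 and 2499 of all 22452 genes. The lists were chosen with results of these data known, and a passed filter favours genes that are high in either stage. Each count per list below is to be read beside the 26.0% of all genes called higher and the 5.22% called lower.

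Ligands and surface proteins other than the 10 genes carried the largest changes. Among 7 of 18 other Wnt genes that were tested, 5 were called higher and 0 lower, beside 26.0% and 5.22% of all genes. With median-of-ratios scaling 2 of the 7 were called, both higher, beside 6.44% of all genes. At E16.5 Wnt9a averaged 0.954 TPM and Wnt7a 0.241 TPM, so both passed the filter of 1 TPM through their E18.5 level. The count is therefore tilted towards genes that rose. Wnt9a was at 1.26, 0.886 and 0.716 TPM at E16.5 and at 11.3, 7.52 and 13.2 TPM at E18.5 (log2 fold change 2.56, limma adjusted p = 0.00735). Wnt4 was at 12.6, 14.1 and 6.28 TPM at E16.5 and at 46.0, 57.2 and 42.2 TPM at E18.5 (2.099, adjusted p = 0.00890). Wnt2 (1.47, adjusted p = 0.0210) and Wnt7b, the most abundant of the 7 after Wnt4 (1.46, adjusted p = 0.0308), rose as well. The stages of these 4 ligands did not overlap. With median-of-ratios scaling Wnt9a and Wnt4 kept their calls, and Wnt2 and Wnt7b did not. Wnt5b, the closest relative of Wnt5a, averaged 2.64 TPM before and 3.64 TPM after and was not called (0.43, adjusted p = 0.347).

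All 4 other co-receptors passed the filter, and 3 were called higher. Gpc4, a glypican that carries Wnt ligands at the cell surface, was at 83.4, 96.0 and 36.4 TPM at E16.5 and at 199, 204 and 208 TPM at E18.5 (log2 fold change 1.604, limma adjusted p = 0.0175). Ryk, a Wnt-binding pseudokinase, changed less (0.54, adjusted p = 0.0339) and Ptk7, at means of 85.6 and 126 TPM, was not called (0.58, adjusted p = 0.0551). With median-of-ratios scaling Gpc4 and Ror1 kept their calls, and Ryk, at 0.086, did not. Relative to Sox9, the log2 change was -0.07 for Gpc4 and 0.15 for Ror1, both with overlapping stages, and 0.52 for Wnt4, without overlap. Relative to the 10 cholangiocyte markers it was -0.37, -0.15 and 0.22, and the stages of all 3 overlapped.

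Among 7 other Frizzled genes tested, 2 were called higher, beside 26.0% of all genes. Fzd9 (1.53, limma adjusted p = 0.0146) went from a mean of 0.614 to 3.61 TPM and Fzd1 (0.84, adjusted p = 0.0150) from 29.8 to 53.8 TPM. For both, every E18.5 library was above every E16.5 library, as for 45.0% of all genes. Fzd9 passed the filter of 1 TPM through its E18.5 level. Fzd7, the most abundant relative, had a log2 fold change of 0.48 and was not called (adjusted p = 0.151). Of 5 tested adaptors and core paralogs, Dvl3, a Dishevelled gene, was called (0.58, adjusted p = 0.0236), at means of 53.3 and 80.0 TPM, and Dvl1, at 39.4 and 51.7 TPM, was not (0.38, adjusted p = 0.0966). With median-of-ratios scaling Fzd9 kept its call, and Fzd1, at 0.39, and Dvl3, at 0.12, did not.

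The Fat and Dachsous system is the second set of polarity cadherins, which acts beside the core group. Of its 4 tested genes 3 rose: Fjx1, a kinase of the Four-jointed family (1.45, limma adjusted p = 0.0260), Fat4 (1.39, adjusted p = 0.0155) and Fat1 (1.32, adjusted p = 0.0139). Fat1 was the most abundant, at 108, 115 and 60.7 TPM at E16.5 and at 234, 251 and 207 TPM at E18.5, with no overlap. With median-of-ratios scaling Fat1 kept its call, and Fjx1 and Fat4 did not. Dchs1, which encodes the ligand of Fat4, was at means of 6.47 and 7.04 TPM and had a log2 fold change of 0.05, with overlapping stages.

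Effectors and partners in the cytoplasm held both genes that fell. Daam1, a formin that assembles actin downstream of Dishevelled, was at 207, 173 and 255 TPM at E16.5 and at 138, 145 and 125 TPM at E18.5 (-0.62, limma adjusted p = 0.0285). Its paralog Daam2 was at 5.21, 2.85 and 3.12 TPM at E16.5 and at 8.75, 11.2 and 12.4 TPM at E18.5 (1.34, adjusted p = 0.0144). Gipc1, an adaptor that binds Vangl2, was at 151, 106 and 171 TPM at E16.5 and at 75.6, 99.2 and 65.5 TPM at E18.5 (-0.82, adjusted p = 0.0329). None of the 3 overlapped between stages, and each was also called in the same direction with median-of-ratios scaling. Of the 12 effectors 4 were called higher, beside 26.0% of all genes. These included Wdpcp (0.92, limma adjusted p = 0.0278) and Intu (0.75, adjusted p = 0.0173), which act in planar polarity and cilium formation. Rock1 was also called, and was at -0.02 with median-of-ratios scaling. With that scaling Daam2 was the only effector called higher, and Wdpcp and Intu were at 0.53 and 0.33. Cdc42, the most abundant effector, was at means of 312 and 366 TPM and was not called (0.22, adjusted p = 0.209). Of 5 partners 3 rose: Smurf1, a ubiquitin ligase that targets Prickle1 (0.71, adjusted p = 0.0178), Scrib, which binds Vangl proteins (0.65, adjusted p = 0.0495), and Sec24b, which exports Vangl2 from the endoplasmic reticulum (0.63, adjusted p = 0.0176). None of these 3 was called with median-of-ratios scaling, where they were at 0.26, 0.20 and 0.17.

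Markers of cells other than cholangiocytes also moved. The 8 megakaryocyte markers summed to 5559, 3191 and 9322 TPM at E16.5 and to 85.9, 737 and 208 TPM at E18.5. All 8 were called lower, beside 5.22% of all genes, and again with median-of-ratios scaling. Prickle1, Daam1 and Gipc1 had the same order of E16.5 libraries as this sum, with C the highest and B the lowest, and so did the effector Rac1. At E18.5 the sum was lowest in A and highest in B. Prickle1 had that order too, whereas Daam1 and Gipc1 were lowest in C. With 3 libraries such an order is easily shared, and the share of all genes with it was not computed. The 12 mesenchyme markers summed to 333, 169 and 246 TPM at E16.5 and to 324, 535 and 834 TPM at E18.5. Of the 11 tested, 4 were called higher, beside 26.0% of all genes, and 1 with median-of-ratios scaling. Prickle2, like this sum, was lowest in the E16.5 library B and highest in the E18.5 library C. This match was picked after the values were seen. All 6 mesothelium markers were called higher, beside 26.0% of all genes, and again with median-of-ratios scaling. Their sums were 12.6, 6.53 and 4.56 TPM at E16.5 and 47.2, 98.4 and 92.4 TPM at E18.5. No marker of these lists was at 0 in all 6 libraries. The part of these cells in the levels of the polarity genes was not tested.

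Endothelial and leukocyte markers had 1 gene called higher in each list, of 8 and 7 tested, beside 26.0% of all genes. With median-of-ratios scaling each of these lists had 0 called higher and 1 called lower. Erythroid markers had 1 of 8 and pancreatic acinar markers 2 of 5 called lower, beside 5.22% of all genes. With median-of-ratios scaling these counts were 1 and 0. Acinar markers summed to 2425 TPM in the E16.5 library A, against 4.52 to 215 TPM in the other 5. Of the 3 neural and Schwann cell markers tested 0 were called by limma.

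**Figure D5:**
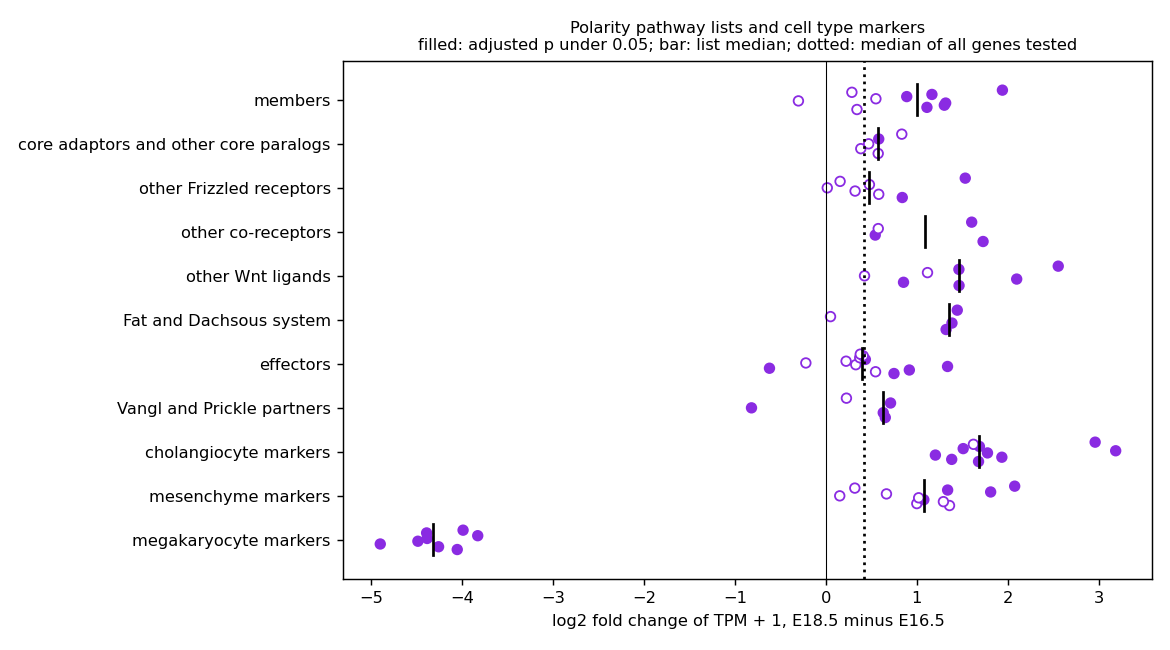
Log2 fold change of TPM + 1 (E18.5 minus E16.5, horizontal axis) of the 10 genes, the 7 pathway lists and 3 marker lists, 1 point per tested gene, filled where the limma adjusted p was under 0.05; bars are list medians and the dotted line the median of all genes tested, 0.42. The 10 genes have a median of 1.001, the other Wnt genes 1.46, the effectors 0.40, the cholangiocyte markers 1.68 and the megakaryocyte markers -4.32.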

How the data were processed

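Total RNA of 6 pools of sorted cells, 3 per stage, was sequenced with a stranded kit. According to the submitters' processing notes and the methods, the authors checked reads with FastQC 0.11.7, aligned them to GRCm38 with HISAT2 2.1.0, counted them per gene with HTSeq 0.5.4p3 and deposited the counts converted to TPM. The role of Bowtie, also named in the notes, is not given in the sources used here. No column of other samples was present in the table.

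Gene symbols, places and exon lengths came from GENCODE vM21 (52403 of 52550 identifiers matched with the version dropped). Multiplying TPM by exon length and dividing by the worth of 1 read gave whole reads within 0.01 for 100% of 180057 nonzero values of 49035 genes. Depth was 13093937 to 26206374 reads per library. For 8 of the 10 genes, those without a changed annotation, values rested on 51 to 2346 reads, 3 reads being worth 0.0273 to 0.174 TPM; intervals cover counting error only, since reads were not tied to single molecules by identifiers. No replicate pair was a copy (chi-square per degree of freedom of at least 17.1).

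Stages were compared with limma 3.58.1 (R 4.3.3) on log2(TPM + 1), with a mean-variance trend, and p-values were adjusted by Benjamini-Hochberg across 22452 genes that averaged 1 TPM or more; on this scale the changes of low genes are understated. TPM is not a count, so a count model served only as an alternative (voom on recovered reads). Ratios used exact permutation tests (scipy 1.17.1). The code was tested on simulated data. Alternatives were pseudocount, filters, scalings, variance models, replicate block, left-out libraries and ratios to biliary markers. Genes named beyond the 10 were, per pathway list, up to 3 called genes with the largest change and the 2 most abundant. Wnt5b, Dchs1, Celsr3, Rock1, Rac1, Muc1 and Spp1 were named after their values were seen. The members and lists were chosen with earlier results of these data known.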

Additional observations from a re-analysis of the deposited data

How the results depend on the processing

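The count of genes called (7000) was 4282 with no filter on low values, 3795 with median-of-ratios scaling, 3796 with quantile normalization and 1148 to 5432 when single libraries were left out, the lowest without the E18.5 library A. By limma voom on the recovered reads, where Celsr1 and Fzd6 could not be included, it was 5563. The share of calls that were higher at E18.5 was 83.3% as deposited, 38.1% with median-of-ratios scaling and 50.5% with quantile normalization. The number of polarity genes called (6) was 2 with median-of-ratios scaling and 0 to 6 without single libraries: 0 without the E18.5 library A or B, 4 without the E16.5 library A or the E18.5 library C. Of the 44 other pathway genes tested, 23 were called, 9 with median-of-ratios scaling, 12 with quantile normalization and 5 to 18 without single libraries.

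None of the alternative fits or scalings of the whole table reversed any of the 6 called polarity genes. Wnt5a kept its call in 13 of 15 alternatives (log2 fold change 1.48 to 2.20), Fzd6 in 12 of 14, Vangl2 and Celsr2 in 12 of 15, Celsr1 in 6 of 14 and Fzd3 in 6 of 15. Values that turned were Vangl1 and Ror2 with median-of-ratios scaling (-0.11 and -0.046) and quantile normalization (-0.023 and -0.14). Relative to Sox9 the reversed values were -1.33 for Vangl1, -0.52 for Vangl2, -0.33 for Celsr1, -0.28 for Celsr2, -1.01 for Prickle2, -0.72 for Fzd3, -0.47 for Fzd6 and -1.28 for Ror2, and relative to the 10 cholangiocyte markers -1.63, -0.82, -0.63, -0.58, -1.31, -1.02, -0.77 and -1.58 in the same order; both were chosen after seeing the data. The Celsr1 to Celsr2 ratio changed by -0.12 to 0.061 without single libraries, and the cause was not tested. Prickle2 and Ror2 fell below the filter of 5 TPM.

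With the replicate block, 7314 genes were called, 6 of the polarity genes and 25 of the other pathway genes among them. What the letters A to C stand for is not given in the sources used here. Deviations of same-letter libraries correlated at -0.04, 0.08 and 0.14. With 3 libraries a stage, these values cannot show whether the letters mark pairs. Ror2 rested on 51 to 115 reads per library, and 3 libraries a stage limit every exact test to p = 0.1.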
